A study of Mus musculus with 9 samples.

Results

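This section describes 8 transcription factor genes that set up or run the gene program of ciliated cells, in RNA of whole mouse oviduct: Foxj1, Myb, Trp73, Rfx2, Rfx3, Foxn4, E2f4 and E2f5. They were chosen by gene symbol, and each symbol matched 1 probe set, so that 8 of 28214 probe sets, or 8 of 19937 genes with a probe set of their own, are described. The study compared CD1 female mice that had received no hormones, in 3 groups of 3 Affymetrix arrays: sexually immature females of day 21 (called controls in the labels), sexually mature females in estrus and sexually mature females in diestrus. The ages of the mature females are not given in the labels. Each array carried RNA pooled from the oviducts of 5 animals, so that the spread between arrays is a spread between pools. All values are log2 intensities after robust multi-array averaging (RMA), a method that corrects background and brings the distributions of the arrays close together. The distributions were not identical: the upper quartile of all probe sets ran from 9.919 on estrus 1 to 10.017 on estrus 2. The part of this offset in the differences below was not tested. A difference of 1 is a doubling of intensity.

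Ciliated cells line the oviduct together with secretory cells, and their beating cilia help to move eggs and embryos. When a precursor leaves the cell cycle to become ciliated, the geminin-family proteins GMNC and MCIDAS join with the cell-cycle factors E2F4 or E2F5 and their DP partner, and the complex switches on genes that amplify centrioles, the future bases of the cilia. MYB and p73 (the product of Trp73) act early in the same program, and FOXJ1, RFX2 and RFX3 then drive genes for the parts of the motile cilium. Notch signals between neighbouring cells hold the program back.

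The ciliated cell was well represented on the arrays. All 10 markers of ciliated cells were measured, and the mean log2 value of the list lay between 11.16 and 11.44 on the immature arrays, between 11.13 and 11.32 on the estrus arrays and between 11.15 and 11.30 on the diestrus arrays, against array medians of 8.85 to 8.90. None of the 10 markers passed the test in any comparison. Of 9 listed secretory markers, 8 were measured, with list means between 11.14 and 11.44 over all arrays. Markers of other tissue varied between arrays. Diestrus 3 had a mean of 12.50 for 6 smooth muscle markers and of 11.60 for 6 stromal markers, where the other 8 arrays lay between 11.62 and 11.92 and between 10.77 and 11.16. Ovarian markers (9 measured) averaged 9.36 in the pool of diestrus 2, 8.92 in that of immature 2 and at most 8.46 in the remaining pools. The part these tissues play in the values below was not tested. In RNA of whole tissue, fewer cells of a type and less RNA per cell cannot be told apart.

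The regulators differed little between the groups, and none of the 8 passed the test in any of the 3 comparisons. In diestrus all 8 had lower means than in immature oviduct, by 1.11-fold to 1.21-fold in intensity, beside 46.3% of all probe sets; the differences of Trp73 and Foxn4 were the largest. In estrus 7 of 8 had lower means than in immature oviduct, beside 45.1%, and in diestrus 6 of 8 had lower means than in estrus, beside 53.1%. The estrus means of E2f4 and E2f5 differed from their immature means by -0.0050 and 0.01. Over the 8 genes the median log2 difference was -0.13 for estrus minus immature, -0.19 for diestrus minus immature and -0.11 for diestrus minus estrus, beside 0.01, 0.01 and -0.01 over all probe sets.

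The counts of calls come from limma, a linear model fitted to all probe sets on all 9 arrays, with a call at a Benjamini-Hochberg adjusted p under 0.05. For estrus minus immature 0 of 8 regulators were called, beside 0.0851% of all probe sets. For diestrus minus immature 0 of 8 were called, beside 1.00%, and for diestrus minus estrus 0 of 8, beside 0.159% (lower in 0.0922%). At an unadjusted p under 0.05 the lower regulators numbered 2 (Rfx3 and Foxn4), 5 (Trp73, Rfx2, Foxn4, E2f4 and E2f5) and 2 (E2f4 and E2f5) in the same order of comparisons, where 4.27%, 8.95% and 5.48% of all probe sets were lower at that level. No regulator was higher at that level. The first and the second comparison share the immature arrays, so their counts are not independent of each other.

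**Figure D1:**
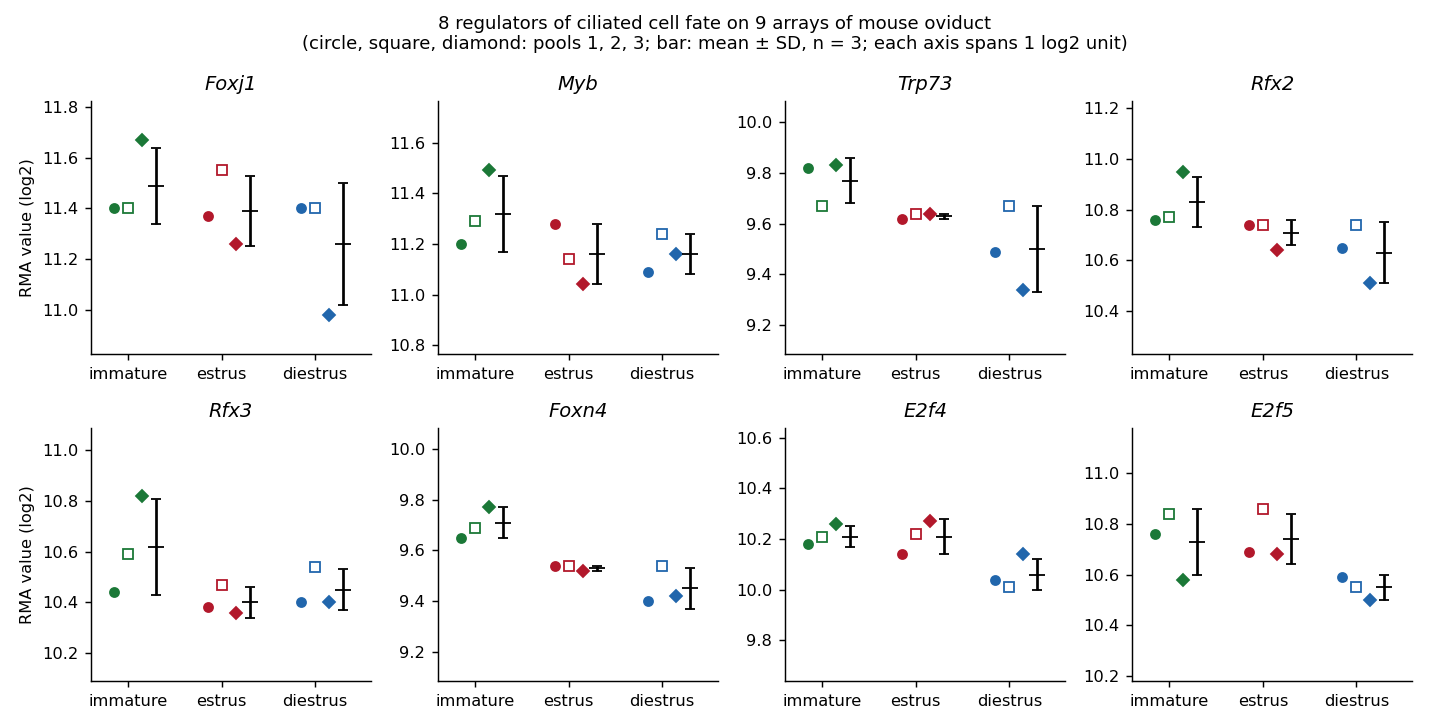
Log2 RMA values of the 8 regulators on each of the 9 arrays (vertical axis, each panel spanning 1 log2 unit), by group (horizontal axis), with circle, square and diamond for pools 1, 2 and 3 and a bar for the mean ± SD of 3 arrays. The Foxj1 groups overlap, with diestrus 3 lowest at 10.98, while the 3 immature arrays of Foxn4 lie above the other 6.

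Foxj1 encodes the forkhead factor regarded as the master switch of motile cilia. Its log2 value was 11.40, 11.40 and 11.67 on immature 1, 2 and 3, then 11.37, 11.55 and 11.26 on the estrus arrays and 11.40, 11.40 and 10.98 on the diestrus arrays. The 3 groups overlapped, and only diestrus 3 stood well below the rest. The group means were ordered immature (11.49 ± 0.15, SD, n = 3), estrus (11.39 ± 0.14) and diestrus (11.26 ± 0.24), with no neighbours in this order apart by more than their spread. Diestrus minus immature was -0.23 ± 0.13 (SE; limma adjusted p = 0.49), with a 95% interval from -0.51 to 0.05. Without diestrus 3, where muscle and stromal markers were highest, that difference was -0.09, and diestrus minus estrus went from -0.13 to 0.0053. Foxj1 had the largest spread within groups of the 8 regulators, an SD of 0.184 against a median of 0.096 over all probe sets.

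Foxn4, a forkhead factor that acts beside Foxj1 on genes of cells with many cilia in other vertebrates, gave the lowest adjusted p of the 8. The immature arrays read 9.65, 9.69 and 9.77, those of estrus 9.54, 9.54 and 9.52, and those of diestrus 9.40, 9.54 and 9.42. All 3 immature arrays lay above all 6 mature arrays, whereas estrus and diestrus overlapped. The difference was -0.25 ± 0.06 for diestrus minus immature (limma adjusted p = 0.0837, 1.19-fold) and -0.17 ± 0.06 for estrus minus immature (adjusted p = 0.576). Leaving out any single array kept the diestrus difference between -0.30 and -0.22, without a call.

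Trp73 encodes p73, a member of the p53 family that is needed for multiple cilia in airway and oviduct. Its values were 9.82, 9.67 and 9.83 on the immature arrays, 9.62, 9.64 and 9.64 in estrus and 9.49, 9.67 and 9.34 in diestrus. The immature arrays lay above the others by a narrow margin, since immature 2 and diestrus 2 both rounded to 9.67. The difference was -0.14 ± 0.08 from immature to estrus (limma adjusted p = 0.835) and -0.28 ± 0.08 from immature to diestrus (adjusted p = 0.177), the latter with a 95% interval from -0.46 to -0.09. The estrus arrays varied by an SD of 0.01 and the diestrus arrays by 0.17. Without diestrus 3 the difference from immature was -0.20.

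Myb encodes a factor known from dividing blood progenitors that also switches on briefly in cells about to become ciliated. It read 11.20, 11.29 and 11.49 on the immature arrays, 11.28, 11.14 and 11.04 in estrus and 11.09, 11.24 and 11.16 in diestrus. The group means of estrus and diestrus were the same to 2 decimals, 11.16 (SD 0.12 and 0.08), below the immature mean of 11.32 ± 0.15, and the immature arrays overlapped with both. Diestrus minus immature was -0.16 ± 0.09 (limma adjusted p = 0.483), and diestrus minus estrus was 0.0077 ± 0.09, with a 95% interval from -0.19 to 0.21. Without immature 3, diestrus minus immature was -0.08 for Myb.

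The bases just before the start of Myb are shown because they hold an E2F site, the letters TTTGGCG (in capitals), and E2F4 and E2F5 are the partners of GMNC and MCIDAS. The stretch is chr10:21160985-21161084 on the minus strand of GRCm38.p6, 100 bases up to the transcription start, from RefSeq:
Myb: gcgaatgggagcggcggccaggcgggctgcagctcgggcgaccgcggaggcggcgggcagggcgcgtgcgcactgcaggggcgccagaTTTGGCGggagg
The site begins at position -12 from the start. On either strand, TTTGGCG occurs in 1.56% of the 32851 promoter windows of 300 bases in the same table. The forkhead core TGTTTAC, found in 3.65% of windows, also lies in the Myb window, from base 34 after the start. These matches are descriptions of letters, not of bound sites.

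Rfx2 and Rfx3 encode winged-helix factors that bind X-box motifs in genes of cilia, intraflagellar transport included. Rfx2 read 10.76, 10.77 and 10.95 on the immature arrays, 10.74, 10.74 and 10.64 in estrus and 10.65, 10.74 and 10.51 in diestrus. The immature arrays lay above the 6 mature arrays, by 0.02 at the closest to 2 decimals, and the mature groups overlapped. Its diestrus mean was below the immature mean by -0.19 ± 0.08 (limma adjusted p = 0.306) and its estrus mean by -0.12 ± 0.08 (adjusted p = 0.844). Without immature 3 the estrus difference of Rfx2 was -0.06. Rfx3 read 10.44, 10.59 and 10.82 on the immature arrays, 10.38, 10.47 and 10.36 in estrus and 10.40, 10.54 and 10.40 in diestrus. Immature 2 and 3 lay above every mature array, and immature 1 lay within the range of both mature groups. Rfx3 was the regulator with the largest estrus difference, -0.22 ± 0.09 (adjusted p = 0.756), which became -0.11 without immature 3. Its diestrus difference of -0.17 ± 0.09 (adjusted p = 0.477) became -0.07 without the same array.

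The starts of these 2 genes share 10 letters, AACCGTTGCC, shown in capitals below. This stretch was singled out after the sequences had been seen. It contains the X-box half-site GTTGCC and, on the other strand, the MYB site AACGG, which overlap in it:
Rfx2: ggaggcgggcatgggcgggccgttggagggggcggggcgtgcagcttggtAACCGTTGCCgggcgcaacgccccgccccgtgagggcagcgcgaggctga
Rfx3: gagttatagcAACCGTTGCCttgtgaatca
The Rfx2 stretch is chr17:56831079-56831178 and the Rfx3 stretch chr19:28011120-28011149, both on the minus strand of GRCm38.p6. The 10 letters begin at position -120 from the Rfx2 start and at base 28 after the Rfx3 start. On either strand they occur in 8 of the 32851 windows (0.0244%), which include those of Rfx2 and Rfx3 by the choice of the stretch. That share therefore does not measure how unusual the sharing is. The shorter GTTGCC alone occurs in 12.5% of windows and AACGG in 17.4%. Trp73 also had a GTTGCC on the reverse strand in 1 of its 2 windows, and the Foxn4 window held AACGG. RefSeq windows were matched for 5 of the 8 regulators, the others being Foxj1, E2f4 and E2f5.

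E2f4 and E2f5 encode cell-cycle factors known mainly as repressors, which the geminin-family proteins turn into activators in ciliating cells. E2f4 read 10.18, 10.21 and 10.26 on the immature arrays, 10.14, 10.22 and 10.27 in estrus and 10.04, 10.01 and 10.14 in diestrus. The immature arrays lay within the range of the estrus arrays, and the 3 diestrus arrays lay below both, with diestrus 3 and estrus 1 equal to 2 decimals. The estrus mean differed from the immature mean by -0.0050 ± 0.06 (limma adjusted p = 0.99), and the diestrus mean was 1.11-fold lower than either, a difference of -0.15 ± 0.06 from each (adjusted p = 0.296 against immature and 0.453 against estrus). With array weights, which give discordant arrays less say, the difference between diestrus and estrus was -0.23 and passed the threshold (adjusted p = 0.0071), in a setting that called 3331 probe sets against 45 without weights.

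E2f5 read 10.76, 10.84 and 10.58 on the immature arrays, 10.69, 10.86 and 10.68 in estrus and 10.59, 10.55 and 10.50 in diestrus. Diestrus lay below all estrus arrays, and below the immature arrays except immature 3. Diestrus minus estrus was -0.20 ± 0.08 (limma adjusted p = 0.466) and diestrus minus immature -0.18 ± 0.08 (adjusted p = 0.355), while estrus minus immature was 0.01 ± 0.08. Both E2F genes had their lowest mean in diestrus with estrus and immature close together, whereas Myb and Rfx3 had both mature groups close together below immature. The difference between these orders was not tested.

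Counting arrays that do not overlap gave the following. For estrus minus immature, 3 of 8 regulators had all estrus arrays below all immature arrays (Trp73, Rfx2 and Foxn4), beside 6.62% of all probe sets. Diestrus lay wholly below immature in 4 of 8 (the same 3 and E2f4), beside 10.9%, and wholly below estrus in 2 of 8 (E2f4 and E2f5), beside 6.85%. An exact permutation test of 3 against 3 arrays cannot give a two-sided p below 0.1, which was its value in each of these cases.

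**Figure D2:**
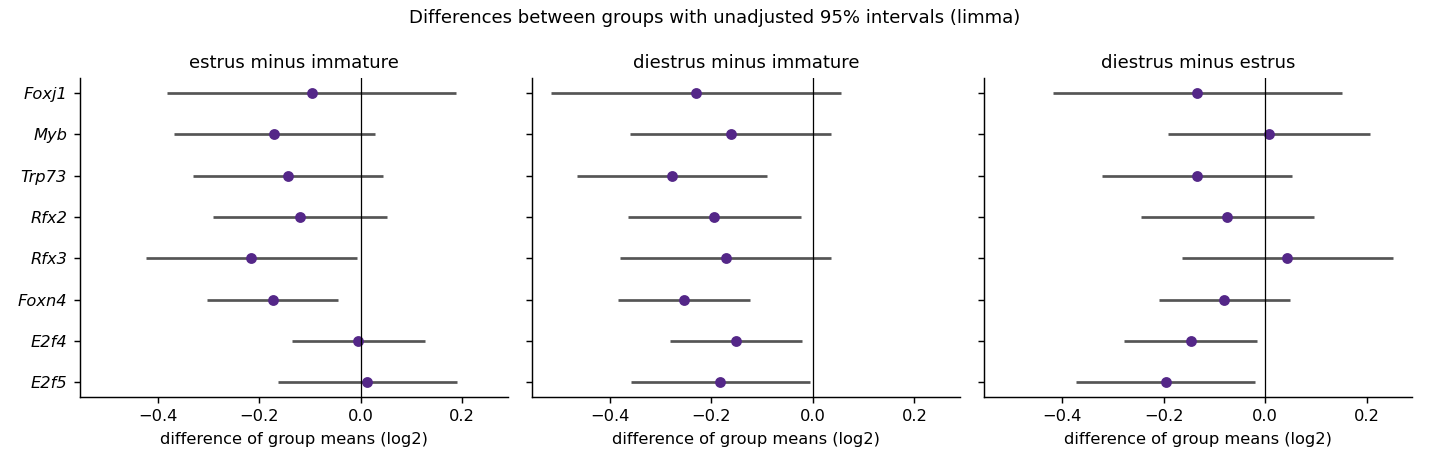
Differences of group means on the log2 scale (horizontal axis) for the 8 regulators (vertical axis) in the 3 comparisons, as points with unadjusted 95% intervals from limma. In the comparison of diestrus with immature all 8 points lie below 0, from -0.28 for Trp73 to -0.15 for E2f4, and 5 intervals do not reach 0.

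Within groups, the arrays moved several regulators together. Immature 3 was the highest immature array in 7 of 8 regulators and the highest of all 9 arrays in 6 (all but E2f4 and E2f5). Estrus 2 was the highest estrus array in 6 of 8, ties counted, and estrus 3 the lowest in 6 of 8. Diestrus 2 was the highest diestrus array in 6 of 8, and diestrus 3 the lowest in 5 of 8. The mean of the 10 ciliated cell markers was likewise highest on immature 3, at 11.44, and among the diestrus arrays highest on diestrus 2 (11.30) and lowest on diestrus 3 (11.15). E2f5 ran the other way in the immature group, with immature 3 lowest, 0.15 below its group mean while Rfx3 was 0.21 above. Immature 3 and estrus 2 also had the highest upper quartiles of all probe sets, 10.016 and 10.017. How many of all probe sets were highest or lowest on the same arrays was not counted, so these patterns are not shown to be particular to the regulators.

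The regulators were also set against the ciliated cell markers of the same array. The marker mean itself differed by -0.08 for estrus and -0.09 for diestrus against immature. After it was subtracted array by array, diestrus minus immature was below 0 in 8 of 8 regulators, beside 21.3% of all probe sets treated the same way, and ran from -0.19 for Trp73 and -0.16 for Foxn4 to -0.06 for E2f4. All diestrus arrays then lay below all immature arrays for 3 of 8 (Rfx2, Rfx3 and Foxn4), beside 2.09%. Estrus minus immature was below 0 in 6 of 8, beside 19.2%, and without overlap in 1 of 8, beside 1.73%. It was -0.14 for Rfx3, the gene without overlap, -0.10 for Foxn4 and -0.02 for Foxj1, while E2f4 and E2f5 were above 0, at 0.07 and 0.09. Before subtraction, 38 motile cilium genes and 30 genes for intraflagellar transport and basal bodies had diestrus medians of -0.14 and -0.13 against immature. How many of them were below 0 after subtraction was not counted, so the pattern is not shown to be particular to the regulators. Over all probe sets, the subtraction took the diestrus share without overlap from 10.9% to 2.09%, so that share depends on the subtraction. These are descriptions with no test, and fewer ciliated cells and less RNA per cell cannot be told apart by them.

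**Figure D3:**
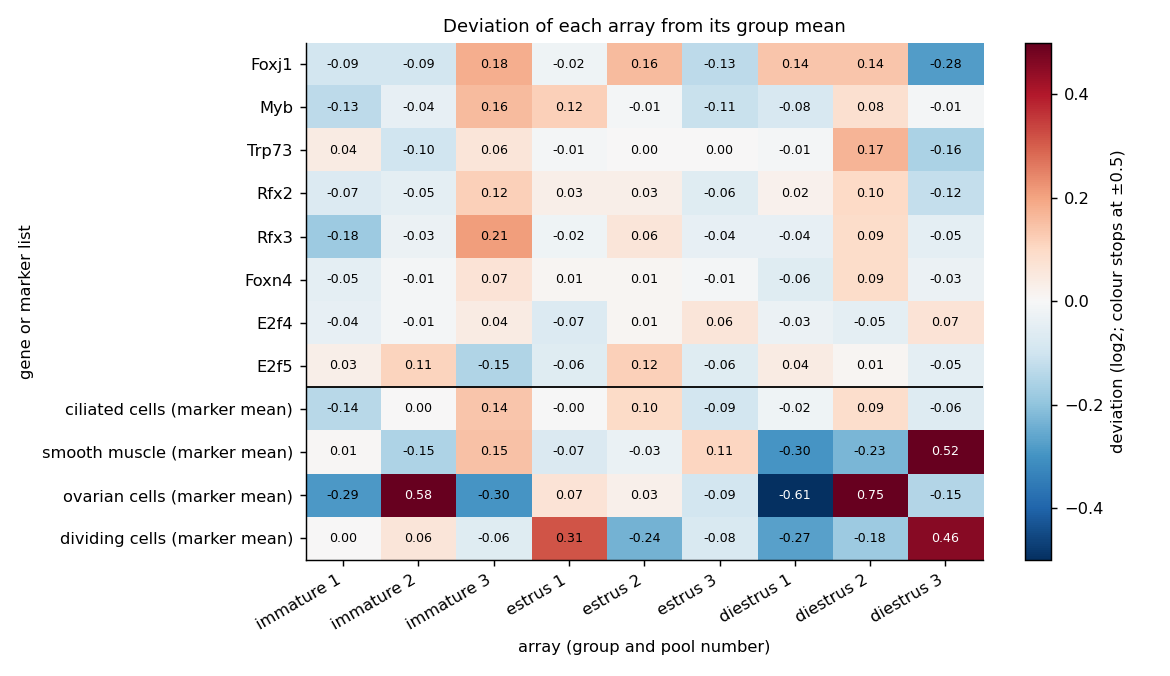
Deviation of each array (horizontal axis) from the mean of its own group, on the log2 scale, for the 8 regulators and for the mean of 4 marker lists (vertical axis), red above and blue below 0. Immature 3 is above its group mean for 7 regulators, by up to 0.21, and diestrus 3 is 0.28 below for Foxj1 where the muscle markers are 0.52 above.

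The list of geminin-family genes and others placed before or beside these regulators held 12 genes, all measured. Of these, 2 fell in diestrus against immature (Mcidas and Ccno), beside 0.705% of all probe sets, none rose, and the median difference was -0.09. Ccno is also in the list of centriole amplification genes below and counts in both. Gmnc and Mcidas, the geminin-family switches that recruit E2F4 and E2F5, are described whatever their result. Gmnc read 10.07, 10.24 and 10.42 on the immature arrays, 10.15, 10.21 and 10.20 in estrus and 9.77, 9.82 and 9.15 in diestrus. The 3 diestrus arrays lay below the other 6, with diestrus 3 far below its group. Gmnc differed by -0.66 ± 0.16 between diestrus and immature (limma adjusted p = 0.0996) and by -0.61 ± 0.16 between diestrus and estrus (adjusted p = 0.207). Without diestrus 3 these differences were -0.45 and -0.40.

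Mcidas read 10.31, 10.25 and 10.27 on the immature arrays, 10.15, 9.94 and 9.97 in estrus and 9.75, 9.80 and 9.58 in diestrus, and no 2 groups overlapped. It fell 1.48-fold from immature to diestrus (-0.56 ± 0.08, limma adjusted p = 0.0149). The estrus value lay between, -0.25 ± 0.08 from immature and with diestrus a further -0.31 ± 0.08 away (adjusted p = 0.501 and 0.175). The call against immature was lost without immature 1, 2 or 3 (adjusted p = 0.0619, 0.0693 and 0.068), with the difference between -0.61 and -0.50 over all single arrays left out. Ccno, which encodes an atypical cyclin needed to make many centrioles, read 9.90, 9.67 and 9.89 on the immature arrays, 9.56, 9.40 and 9.27 in estrus and 9.01, 9.04 and 8.90 in diestrus, again with no overlap. It fell by 0.84 ± 0.09 from immature to diestrus, 1.79-fold (adjusted p = 0.00604), and was called whichever single array was left out.

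Mcidas and Ccno are neighbours on chromosome 13, and both starts hold GTTGCC (capitals), a half-site of the X-box motif that RFX2 and RFX3 bind:
Mcidas: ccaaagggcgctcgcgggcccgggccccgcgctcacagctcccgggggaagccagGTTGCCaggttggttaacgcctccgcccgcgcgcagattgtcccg
Ccno: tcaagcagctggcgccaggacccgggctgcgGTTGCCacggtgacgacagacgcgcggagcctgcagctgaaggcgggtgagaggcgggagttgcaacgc
The stretches are chr13:112993618-112993717 and chr13:112987552-112987651 on the plus strand of GRCm38.p6, and the half-sites begin at position -195 from the Mcidas start and -219 from the Ccno start. As given above, 12.5% of all windows hold this half-site. Only the half-site letters were searched for, so whether either match is part of a whole X-box was not checked. These matches too describe letters, not bound sites. The 2 windows of Gmnc held no match to the E2F, forkhead, MYB or X-box letters given above.

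**Figure D4:**
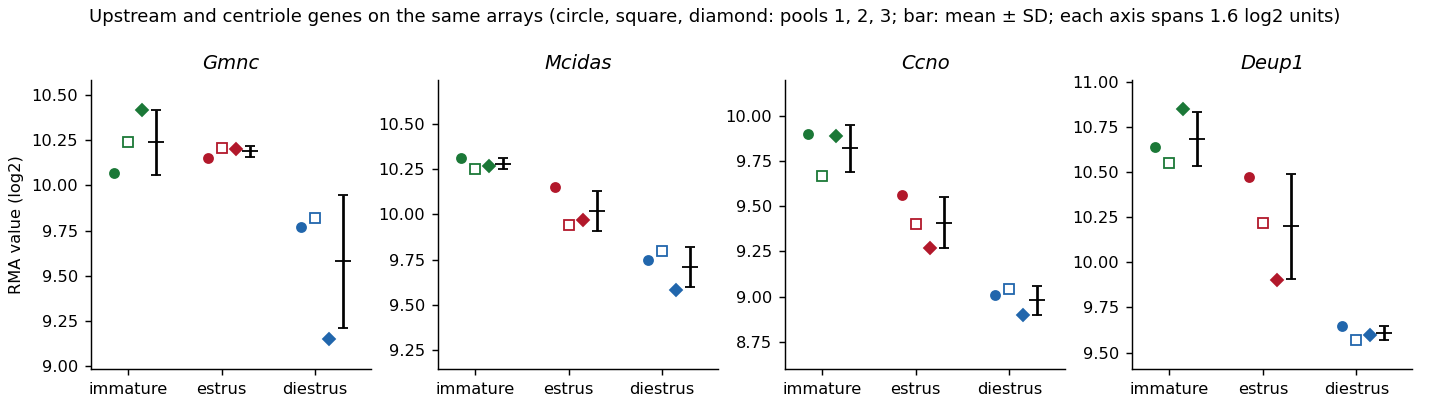
Log2 RMA values of Gmnc, Mcidas, Ccno and the deuterosome gene Deup1 on the 9 arrays (vertical axis, each panel spanning 1.6 log2 units) by group (horizontal axis), with symbols for pools 1, 2 and 3 and a bar for the mean ± SD of 3 arrays. The diestrus arrays are the lowest in each panel, and for Gmnc the estrus arrays (10.15 to 10.21) lie within the immature range.

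Among 14 relatives of the E2F factors and their pocket protein and MYB partners, 4 fell in diestrus against immature, beside 0.705% of all probe sets. None rose, and the list median was -0.14. The 4 are named after their values were seen. E2f7 and E2f8, which encode other repressors of the E2F family, fell by 0.61 ± 0.08 and 0.81 ± 0.13 (limma adjusted p = 0.0152 and 0.0293). Rbl1, which encodes the pocket protein p107 that binds E2F4, fell by 0.62 ± 0.10 (adjusted p = 0.027): its diestrus arrays read 9.41, 9.55 and 9.81, against 10.19 to 10.22 on the immature and 10.10 to 10.33 on the estrus arrays. Mybl1, a relative of Myb, fell by 0.61 ± 0.09 (adjusted p = 0.0202). E2f8 was above the array median on 1 array and Mybl1 on 3, and no detection above background was shown for their lower groups. The calls of E2f7, Rbl1 and Mybl1 were each lost without immature 1, 2 or 3 and without diestrus 1 or 2, and that of E2f8 also without estrus 1 or 3 (adjusted p from 0.0525 to 0.107). Markers of dividing cells moved the same way: 7 of 8 were measured, all 7 had lower means in diestrus than in immature oviduct, 1 fell, and their list mean went from 9.63 to 9.75 on the immature arrays to 8.69 to 9.42 on the diestrus arrays. Their part in the falls of these E2F relatives was not tested.

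The closer relatives of the RFX and forkhead members did not pass the test in any comparison. None of 8 other RFX family genes was called, their diestrus differences from immature lay between -0.13 and 0.06 with a median of 0.00, and Rfx1 stood between 9.77 and 9.91 on all 9 arrays. Among 13 other forkhead genes none was called, and the median was 0.05. Of 19 Notch pathway genes none was called in any comparison, with a median of 0.04 for diestrus minus immature. The receptor gene Notch1 read 10.46 to 10.70 over all arrays. Hey2, a Notch target, had the largest difference of all pathway genes between diestrus and estrus, -0.64 ± 0.20 (limma adjusted p = 0.293), with 10.59 on estrus 2 and 9.20 on diestrus 3 as its extremes. Of 7 genes of the p53 family and p73 targets, 5 were measured and none was called (median 0.00). Part of each of these lists was above the array median on 0 of the 9 arrays. These genes were Rfx4, Rfx6, Rfx8, Foxn1, Foxa1, Foxl1, Foxm1, Foxc1, Foxf2, Dll1, Dll3, Mfng, Trp63 and Sox2. No detection above background was shown for them, and they enter the medians given here. The same limit holds in the lists above for Gmnn and Noto (upstream genes) and for E2f1, E2f2, E2f3 and Lin9 (E2F relatives). In the lists below it holds for Spag6, Kif17, Cep152 and Cenpj, and among the markers of dividing cells for Birc5 and Bub1.

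Of 38 measured genes for parts of motile cilia none was called, 33 had lower means in diestrus than in immature oviduct and 35 in estrus (medians -0.14 and -0.15). Of all probe sets, 46.3% and 45.1% had lower means in these comparisons, which is the background also for the counts below. Tppp3, Sntn, Ccdc113, Cfap126, Rsph1, Dynlrb2 and Tekt1 are also among the ciliated cell markers, so the 2 lists are not separate. Of 30 genes for intraflagellar transport and basal bodies none was called, with 28 lower in diestrus and 27 in estrus (medians -0.13 and -0.12). Centriole amplification genes had lower means in 16 of 16 cases in both comparisons with immature oviduct. Of these 16, 7 fell in diestrus and 2 in estrus, with medians of -0.51 and -0.27. Markers of dividing cells moved with this list: 7 of 7 had lower means in both comparisons, with medians of -0.88 in diestrus and -0.90 in estrus, and Cdk1 is in both lists. Their part in the centriole gene values was not tested. The centriole genes that fell in diestrus included Deup1, of the deuterosome, by 1.07 ± 0.13 (limma adjusted p = 0.0103, lost without diestrus 2, 0.0518). Stil fell there by 1.16 ± 0.10, Ccna1 by 1.08 ± 0.08 and Plk4 by 1.04 ± 0.12 (adjusted p = 0.00246, 0.00183 and 0.00657). These 3 diestrus calls held whichever single array was left out. In estrus Ccna1 and Stil fell. The estrus call of Stil was lost when any 1 array but diestrus 3 was left out (adjusted p from 0.069 to 0.175). Stil was above the array median only on the 3 immature arrays, and detection above background was not shown on the other arrays. In all, 12 of 154 other pathway genes fell in diestrus against immature, with Ccno of 2 lists counted 1 time, and 2 in estrus. Of all probe sets, 0.705% and 0.0532% fell in these comparisons. None of the 154 was called between diestrus and estrus. With immature 2, diestrus 2 and diestrus 3 all left out, an alternative chosen after seeing the data, none of the 154 was called in any comparison. In that setting diestrus minus immature was still -1.29 for Stil, -1.09 for Deup1, -0.88 for Ccno and -0.54 for Mcidas.

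**Figure D5:**
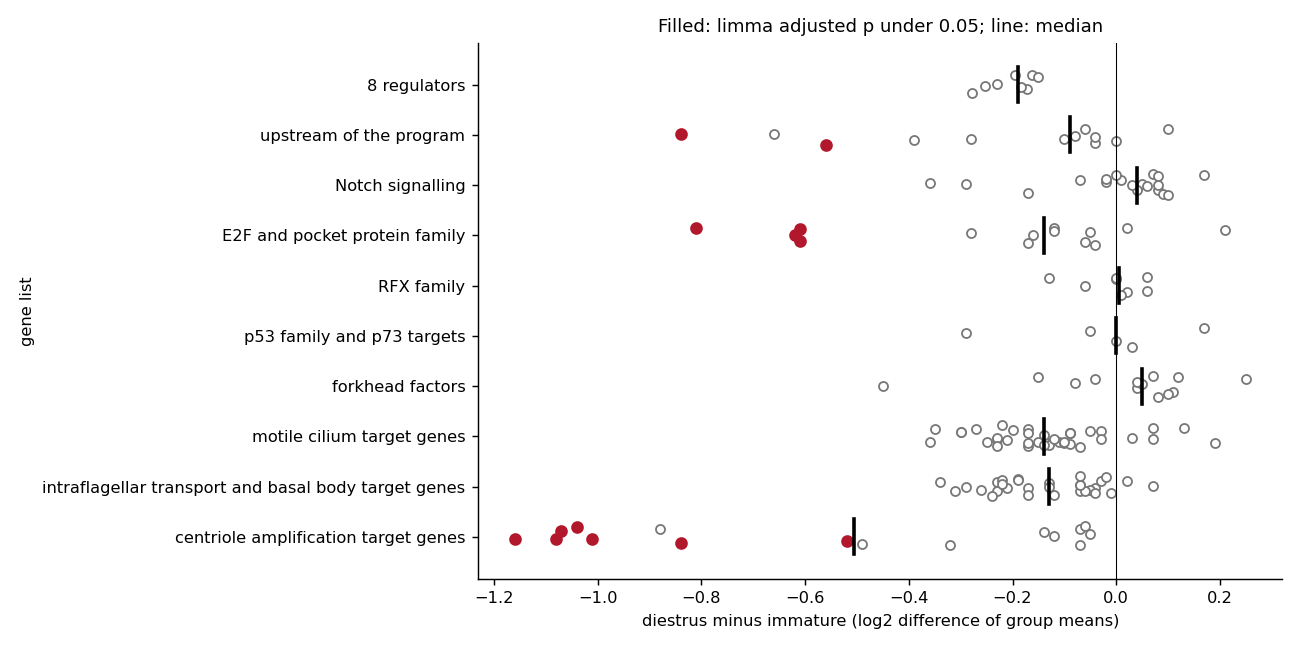
Log2 difference of diestrus minus immature (horizontal axis) for the 8 regulators and for the genes of 9 pathway lists (vertical axis). Each list has 1 point per gene, filled where limma's adjusted p was under 0.05, and a line at its median. Ccno is drawn in both the upstream and the centriole list. Filled points appear in 3 lists (upstream genes, E2F relatives and centriole genes), and the 8 regulators lie between -0.28 and -0.15.

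Across the 9 arrays, the probe sets whose profile was most like that of each regulator were found by Pearson's correlation of log2 values, among probe sets with 1 symbol and a mean above the median. The values share arrays, pools and normalization, and the highest of many correlations over 9 points are high by selection, so they are a description with no test. The profile closest to Foxj1 was that of Ankef1 (0.979), followed by Tollip (0.969). Myb was closest to Rsph1 (0.976) and Rcc2 (0.958), Trp73 to Vac14 (0.984) and Dhx16 (0.979), and Rfx2 to Cfap77 (0.992) and Bbs1 (0.973). Rfx3 was closest to Iqcg (0.981) and Zmynd10 (0.98), Foxn4 to Kif24 and Fgd1 (both 0.979), E2f4 to Tubb2a (0.973) and Psmd11 (0.962), and E2f5 to Tmem33 (0.951) and Riok2 (0.942). Cfap77 followed Rfx2 within groups as well, with 0.984 for deviations from the group means, and Iqcg followed Rfx3 with 0.981.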

How the data were processed

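Oviduct RNA of 9 pools of 5 mice was measured on Affymetrix arrays. Per the submitters' processing notes, Affymetrix Expression Console and RMA gave the log2 values that the authors deposited; their versions and the probe sets' build: not given in the sources used here. With 3 arrays a group, the number of arrays limits precision, and p-values measure the spread between pools. Of 28214 probe sets, 21640 had 1 symbol in the platform annotation, updated through Entrez identifiers; where several carried a symbol of a list, that with the highest mean was used. One limma fit (version 3.58.1, R 4.3.3; lmFit and eBayes, two-sided) took all probe sets and arrays, with 6 residual and 3.6 prior degrees of freedom; it was checked on simulated data. Figures were drawn with matplotlib 3.10.9, and tables were made with pandas 2.3.3 in Python 3.11.15.

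The members and lists were chosen with earlier results of these data known. The rule for names took all 8 members, Gmnc and Mcidas, up to 6 called list genes by size in each comparison or, with none called, the 2 largest differences, and the likest profiles; the text names a part of these. Lists of fat cells (6 of 6 measured, list mean 8.09 to 8.97), leukocytes (9 of 10, 8.26 to 8.98) and endothelium (6 of 6, 8.99 to 9.64) were also checked. Promoter sequences are from RefSeq tables on GRCm38.p6, with windows from 250 bases before to 50 after the start. Alternatives changed normalization, filter, prior, weights, block, threshold and arrays.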

Additional observations from a re-analysis of the deposited data

How the results depend on the processing

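No regulator was called in any of the 19 other settings tried, with 1 exception, E2f4 between diestrus and estrus with array weights, which made that count 1. Of 456 recomputed differences of the 8 regulators, 439 kept their direction and their side of the threshold and 16 changed sign, all of them small and none called. For estrus minus immature, E2f4 was 0.0405 with quantile normalization again, 0.0272 with cyclic loess and 0.0544 with array weights (-0.0355 to 0.0295 with single arrays left out), and E2f5 -0.0588 with array weights (-0.0605 to 0.0695). For diestrus minus estrus, array weights gave 0.0698 for Foxj1 and 0.0312 for Rfx2, and single arrays left out gave -0.20 to 0.0053 for Foxj1, -0.0478 to 0.0692 for Myb and -0.0018 to 0.0763 for Rfx3. Gmnc ranged from -0.139 to 0.0365 in the same way for estrus minus immature. Immature 2, diestrus 2 and diestrus 3, with high ovarian or muscle values, were left out together after seeing the data, and the lone diestrus array was assumed to vary like the others: Foxj1 was then 0.0033 and Myb -0.0690 for diestrus minus estrus.

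Counts of all probe sets called are given for estrus minus immature, diestrus minus immature and diestrus minus estrus in turn. They were 24, 282 and 45, and became 4, 121 and 13 with the replicate block, 1023, 1288 and 3331 with array weights, 2, 31 and 1 at an adjusted p under 0.01, and 2, 3 and 0 without the 3 arrays. Cyclic loess gave 5 in the first, fits of only the arrays compared 85 in the second and 0 in the third, and the low-value filter 69 in the third. Single arrays left out gave 1 to 95, 41 to 533 and 1 to 105. Pathway genes called were 2, 12 and 0. In the first comparison they became 1 with the replicate block, cyclic loess, only the arrays compared or 0.01, 25 with array weights and 0 without the 3 arrays (1 to 4 with single arrays left out). In the second they became 20 with weights, 4 at 0.01 and 0 without the 3 arrays (5 to 14). In the third they became 1 with the filter or with the trend and robust prior, and 30 with weights (0 to 2). The cause of these changes was not tested. Same-numbered arrays share only a number: deviations from group means correlated between -0.29 and 0.17, and the replicate block called no regulator.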
